A study of Drosophila melanogaster with 2 samples.

Results

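The genes for the proteins of the large subunit of the cytoplasmic ribosome were examined for binding of CG9705 in Drosophila larvae. The 54 members were every protein-coding gene whose Ensembl symbol starts with RpL and a digit or with RpLP, out of 13945 protein-coding genes on the main chromosome arms, a rule that uses no measured value. A gene was called bound when a peak summit lay within 500 bp of 1 of its transcript starts, and 45 of the 54 were bound in the set of reproducible peaks that the authors call optimal.

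The large subunit holds the peptidyl transferase centre, where peptide bonds form, the tunnel through which the new chain leaves, and a flexible stalk that recruits the translation factors. Its proteins are made in near-equal amounts and are assembled with ribosomal RNA in the nucleolus, and loss of 1 copy of many of these genes gives the Minute phenotype of slow growth and short bristles. In flies most ribosomal protein genes start transcription within a run of pyrimidines, the TCT initiator, in place of the usual initiator. CG9705 encodes a protein with a cold-shock domain, a fold that binds single-stranded nucleic acids.

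Bound DNA was recovered by chromatin immunoprecipitation and sequenced (ChIP-seq) from entire wandering L3 larvae, with males and females pooled, in 2 biological replicates that the labels give as separate biosamples. All larvae came from 1 transgenic line that stably expresses CG9705 with GFP at its C-terminus, and there was no other genotype, stage or treatment to compare. The free-text description of both libraries calls them an input control, whereas the antibody field, the assay title and the separate control file behind each peak list mark them as immunoprecipitated samples, and they were treated as such. The peak lists give no expression values, so neither the labelled stage nor the presence of the tagged protein was checked.

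The optimal set is a short list of the pooled peaks that recurred between replicates, and the relaxed lists for replicate 1, replicate 2 and the pool of both held 30000 peaks each, background included. The lists hold no read counts, so the sequencing depth behind a peak is unknown. The score of each peak is the authors' own value on a scale that is not stated, and it served only to rank peaks within a list, with rank 1 for the highest score. Offsets are distances from the nearest annotated start of the gene to the summit, negative upstream of the start in the direction of transcription. Whole larvae mix many tissues, and more cells with a bound site cannot be told apart from stronger binding in each cell.

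The promoters are shown first because the summits fell within them. The windows below run from 100 bases before to 20 after the outermost annotated start of a gene, on the gene's own strand, with Release 6 (dm6) coordinates. The first 6 are the best-ranked bound members with no annotated exon in the bases before that start and with the start nearest to the summit, with 1 chromosome arm left out. Capitals mark CTTTT or CTTTC on the sense strand within 10 bases of the start, the letters taken here for the pyrimidine-rich initiator.
RpL34b, chr3R:9401206-9401326, minus strand: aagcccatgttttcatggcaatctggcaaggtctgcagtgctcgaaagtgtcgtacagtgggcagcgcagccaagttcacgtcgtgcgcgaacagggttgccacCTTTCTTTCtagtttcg
RpL13A, chr3R:5624374-5624494, plus strand: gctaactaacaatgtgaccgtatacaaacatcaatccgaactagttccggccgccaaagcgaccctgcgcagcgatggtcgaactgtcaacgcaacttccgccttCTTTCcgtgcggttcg
RpL32, chr3R:30046141-30046261, minus strand: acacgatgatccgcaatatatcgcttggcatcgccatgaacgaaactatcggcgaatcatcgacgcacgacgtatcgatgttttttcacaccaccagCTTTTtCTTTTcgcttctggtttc
RpL23A, chr3L:1668634-1668754, minus strand: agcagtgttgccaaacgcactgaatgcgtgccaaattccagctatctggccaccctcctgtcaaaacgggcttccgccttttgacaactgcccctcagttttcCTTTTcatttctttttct
RpL14, chr3L:8600906-8601026, plus strand: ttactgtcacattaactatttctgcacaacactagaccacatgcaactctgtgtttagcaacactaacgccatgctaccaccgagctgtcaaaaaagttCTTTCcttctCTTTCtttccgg
RpL24, chr2L:13395111-13395231, minus strand: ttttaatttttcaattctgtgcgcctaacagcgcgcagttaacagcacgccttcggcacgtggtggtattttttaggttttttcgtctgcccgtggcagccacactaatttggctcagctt
The summit of the pooled reads lay 74 bases before the start in the RpL34b window, 63 before it for RpL13A and 93 before it for RpL32. For RpL23A, RpL14 and RpL24 it lay 59, 30 and 7 bases before the start. RpL24 carries the marked letters at a second annotated start inside the gene and not at the outermost one shown. RpL32 and RpL34b have further starts inside the gene too. The next 5 windows, chosen without regard to a summit from genes whose outermost and canonical starts lie within 1 base, belong to members that were not bound.
RpL10Aa, chr3R:15037266-15037386, plus strand: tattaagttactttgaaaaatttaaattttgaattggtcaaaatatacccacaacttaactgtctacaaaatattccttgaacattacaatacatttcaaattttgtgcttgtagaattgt
RpL15, chr3L:27267155-27267275, plus strand: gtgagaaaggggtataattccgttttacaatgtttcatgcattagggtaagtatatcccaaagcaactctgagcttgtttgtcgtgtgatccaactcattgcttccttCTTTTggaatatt
RpL24-like, chr3R:11431562-11431682, minus strand: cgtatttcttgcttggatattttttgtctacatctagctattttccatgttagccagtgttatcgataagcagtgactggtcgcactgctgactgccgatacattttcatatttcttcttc
RpL40, chr2L:4227599-4227719, plus strand: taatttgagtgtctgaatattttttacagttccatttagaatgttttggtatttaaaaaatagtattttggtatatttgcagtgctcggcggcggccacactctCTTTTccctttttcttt
RpL6, chr3R:31596184-31596304, minus strand: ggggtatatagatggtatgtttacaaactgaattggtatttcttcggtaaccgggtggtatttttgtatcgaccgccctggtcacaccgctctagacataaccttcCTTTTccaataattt
The marked letters stood in 3 of these 5 unbound promoters, those of RpL15, RpL40 and RpL6.

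CG9705 peaks lay at the starts of 45 of 54 large-subunit genes in the optimal set (83.3%, exact 95% binomial interval 70.7 to 92.1%), against 2661 of 13945 protein-coding genes (19.1%). The interval covers only the counting of genes. In the best-scoring peaks of replicate 1, as many as the optimal set holds, the count was 44 (81.5%) against 18.2% of all protein-coding genes. In the same number from replicate 2 it was 46 (85.2%) against 19.7%. The 2 lists shared 44 members (81.5%), whereas 15.8% of all protein-coding genes were bound in both.

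The sets differed by single genes. RpL38, a subunit needed in mice for translation of Hox messages, was the only optimal member missing from the best list of replicate 1, and RpL15, a core protein of the subunit, was the only member added by replicate 2. Among the 1766 better-scoring peaks of the optimal set, 40 members (74.1%) were still bound against 10.6% of all protein-coding genes, and RpL5, RpL29, RpL35, RpL36A and RpL38 were lost. The relaxed pooled list, which runs into background, held a summit at 50 members (92.6%) against 53.9% of all protein-coding genes.

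The bound members ranked ahead of the average bound gene. Over the 45 genes the median rank of the best peak was 864 (interquartile range 357 to 1434), and over all 2661 bound genes it was 1592 (768 to 2472). A rank within the best 500 was reached by 15 members (33.3%) and by 16.9% of all bound genes, and a rank within the best 1000 by 25 members (55.6%) and 31.9%. The very top of the list was different: 2 members (4.44%) stood among the best 100 peaks, against 3.91% of all bound genes.

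**Figure D1:**
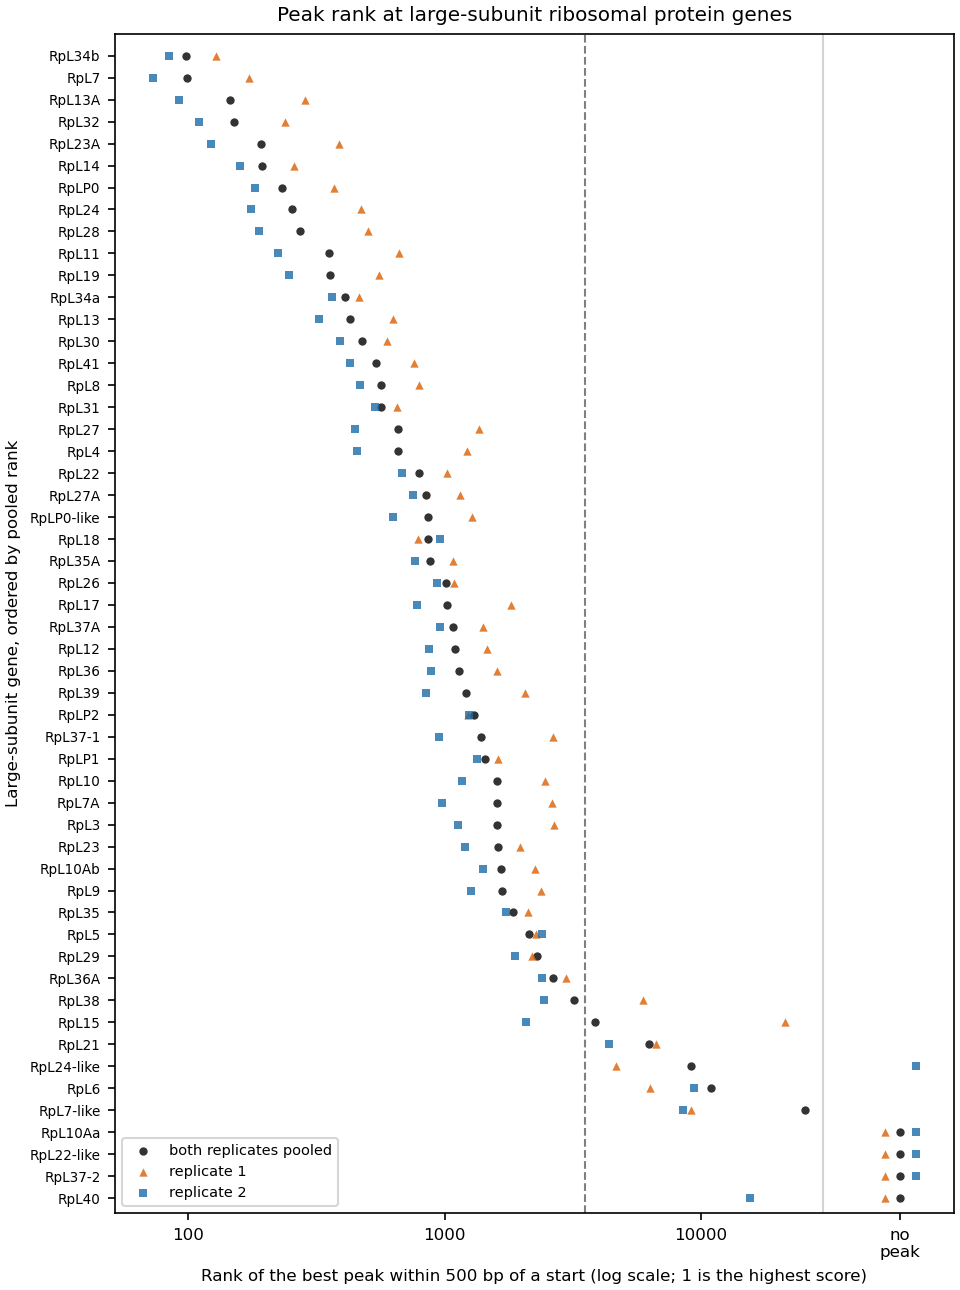
Rank of the best peak within 500 bp of a start at the large-subunit genes, with 1 bound gene not drawn, in the pooled list (circles), replicate 1 (triangles) and replicate 2 (squares), on a log scale, with genes ordered by pooled rank. The dashed line marks the size of the optimal set, the pale line marks rank 30000, the end of each list, and symbols beyond it stand for no peak. RpL34b leads at rank 98, the bound genes run down to RpL38 at 3214, and 4 genes have no pooled peak.

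The 2 best-ranked members were RpL34b and RpL7. RpL34b (FBgn0037686), which encodes eL34, had its peak at chr3R:9401127-9401548 with rank 98 in the pooled list, 128 in replicate 1 and 84 in replicate 2. RpL7 (FBgn0005593), which encodes uL30, had its peak at chr2L:10200884-10201182 with rank 99 in the pooled list, 172 in replicate 1 and 73 in replicate 2. Both stood within the best 200 peaks of every list.

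The next members down also differed in rank between replicates. RpL13A ranked 145 in the pooled list, 286 in replicate 1 and 92 in replicate 2. RpL32, also called rp49 and widely used as a reference gene for transcript levels in flies, ranked 151, 238 and 110 in the same order. For both genes replicate 2 placed the promoter higher than replicate 1.

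Also among the best 12, 3 further members had the same order of lists. RpL14, a gene with a Minute phenotype, had its peak at chr3L:8600805-8601104 and ranked 194 in the pool, 259 in replicate 1 and 159 in replicate 2. RpL24, which forms a bridge to the small subunit, had its peak at chr2L:13395003-13395303 and ranked 253, 471 and 175. RpL28 had its peak at chr3L:3222865-3223187 and ranked 274, 504 and 188. All of them stood higher in replicate 2.

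Proteins that line the exit of the peptide tunnel were found over much of the range. RpL23A, the docking site of the signal recognition particle in yeast, ranked 192 in the pooled list, 387 in replicate 1 and 123 in replicate 2. RpL19 ranked 357, 556 and 247, and RpL31 ranked 567, 650 and 536. RpL26, RpL17 and RpL39, which also lie along the tunnel or at its exit, had pooled ranks of 1018, 1021 and 1208. RpL35, at the tunnel exit as well, was the lowest of these, at pooled rank 1845, with 2114 in replicate 1 and 1744 in replicate 2.

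RpL3, which reaches towards the peptidyl transferase centre, and RpL4, which lines part of the tunnel wall, ranked 1605 and 661 in the pooled list. RpL3 stood at 2687 in replicate 1 and 1125 in replicate 2, and RpL4 at 1223 and 454. RpL10, which joins the subunit late and is needed for its activation in yeast, had rank 1600 in the pooled list, 2469 in replicate 1 and 1175 in replicate 2. None of these was within the best 500 peaks of the pooled list.

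The stalk genes included 1 of the better-ranked members and 3 in the middle of the range. RpLP0, the stalk's base protein, ranked 233 in the pooled list, 370 in replicate 1 and 182 in replicate 2. RpLP1 and RpLP2, the acidic proteins that bind to it and touch the elongation factors, ranked 1434 and 1302 in the pooled list. RpLP1 stood at 1624 in replicate 1 and 1344 in replicate 2, and RpLP2 at 1234 and 1245. RpL12, which lies at the foot of the stalk, ranked 1100, 1462 and 870.

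RpL5 and RpL11 travel with 5S RNA as a particle before they enter the subunit, and in mammals the free particle holds back Mdm2. RpL11 ranked 355 in the pooled list, 665 in replicate 1 and 224 in replicate 2. RpL5 ranked 2130, 2266 and 2402, and was among the few members placed lower in replicate 2. The proteins of this particle lay far apart in rank in every list.

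The other members with a downstream summit had pooled ranks from 475 to 2645. RpL30, which in yeast binds its own transcript, ranked 475 in the pool, 594 in replicate 1 and 391 in replicate 2. RpL26 stood at 1088 and 935 in the replicates. RpL36A ranked 2645, 2993 and 2412, the lowest of the bound members but for RpL38. Of the members whose ranks are not given elsewhere, RpL8, RpL27, RpL35A and RpL37A had pooled ranks of 563, 660, 880 and 1075, and RpL7A, RpL23 and RpL9 had 1603, 1615 and 1680.

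Replicate 2 ranked 42 of the 45 bound members (93.3%) ahead of replicate 1, with medians of 756 and 1145. Among the 2646 bound protein-coding genes with a rank in both replicates, 58.5% ranked better in replicate 2, with medians of 1529 and 1691. The exceptions among the members were RpL18, at 789 in replicate 1 and 960 in replicate 2, RpL5 and RpLP2. The order of the members was shared: across the 45 genes, scores in the 2 replicates had a Spearman correlation of 0.912 and a Pearson correlation of log2 scores of 0.919. That correlation is a description over genes measured in the same 2 libraries. The optimal set was thresholded by reproducibility, so agreement between replicates was part of how these 45 genes were selected. RpL15, at 21262 in replicate 1 and 2081 in replicate 2 with summits at 157 and -39 bp, is not among them. With 1 library per replicate, a difference between replicates in depth, enrichment or larvae cannot be told apart.

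**Figure D2:**
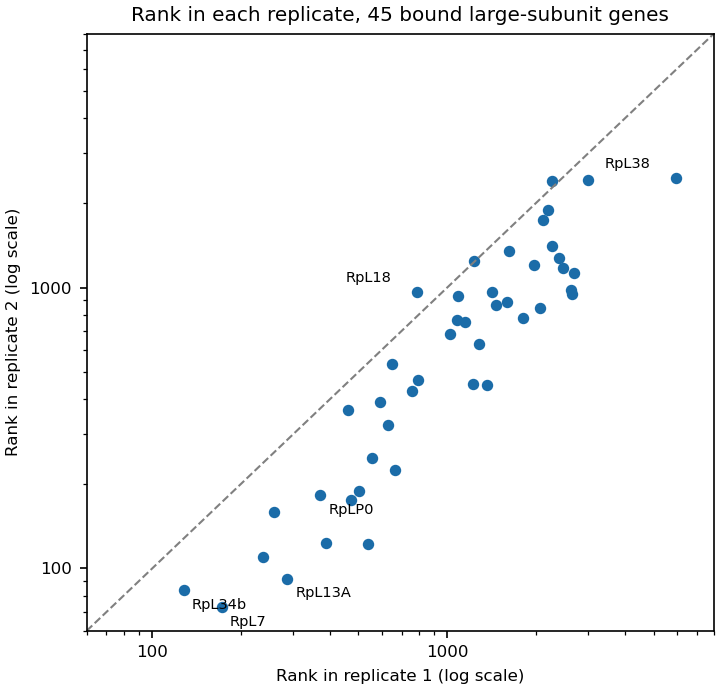
Rank of the best peak in replicate 1 (horizontal, log scale) and replicate 2 (vertical, log scale) for the 45 bound large-subunit genes, 1 point per gene, with a dashed line of equal rank. Of the points, 42 lie below the line, and RpL38 at 5944 and 2450 is the farthest right.

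The summits sat close to the transcript start. The median offset over the 45 bound members was -23 bp (interquartile range -46 to -9), and over all bound protein-coding genes it was -127 bp (-208 to -61). The best summit lay within 50 bp of the start for 33 members (73.3%), against 15.3% of all bound genes. In the best list of replicate 1 it did so for 32 members (72.7%) against 13.5% of all bound genes, and in that of replicate 2 for 33 members (71.7%) against 17.7%.

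The side of the start was not where the members stood apart. The summit was upstream of the nearest start for 40 of 45 members (88.9%) and for 89.2% of all bound genes. For 7 bound members that start lay more than 50 bp from the canonical one. The peaks of RpLP0 and RpL5, counted as upstream, lay wholly downstream of the canonical start. The best peak of RpL26, counted as downstream, lay wholly upstream of its canonical start. The summit lay downstream of the nearest start at RpL7 (25 bp), RpL12 (34 bp), RpL26 (58 bp), RpL30 (10 bp) and RpL36A (22 bp). RpL30 gave -30 bp in replicate 1 and -27 bp in replicate 2. In the same order RpL36A gave -14 and 16 bp, and RpL26 gave -60 and 63 bp. For these 3 genes the sign differed between lists. Each has 2 annotated starts, and in replicate 1 the nearest one was not the one nearest in the other lists. The sign alone therefore does not measure a move of the summit, and the -30 and -27 bp of RpL30 are different places. In replicates 1 and 2 the best peak of RpL30 spanned chr2L:19009077-19009456 and chr2L:19009135-19009530. That of RpL26 spanned chr3L:18898854-18899233 and chr3L:18898740-18899135. RpL7 (25 and 20 bp) and RpL12 (24 and 33 bp) stayed downstream in both replicates.

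**Figure D3:**
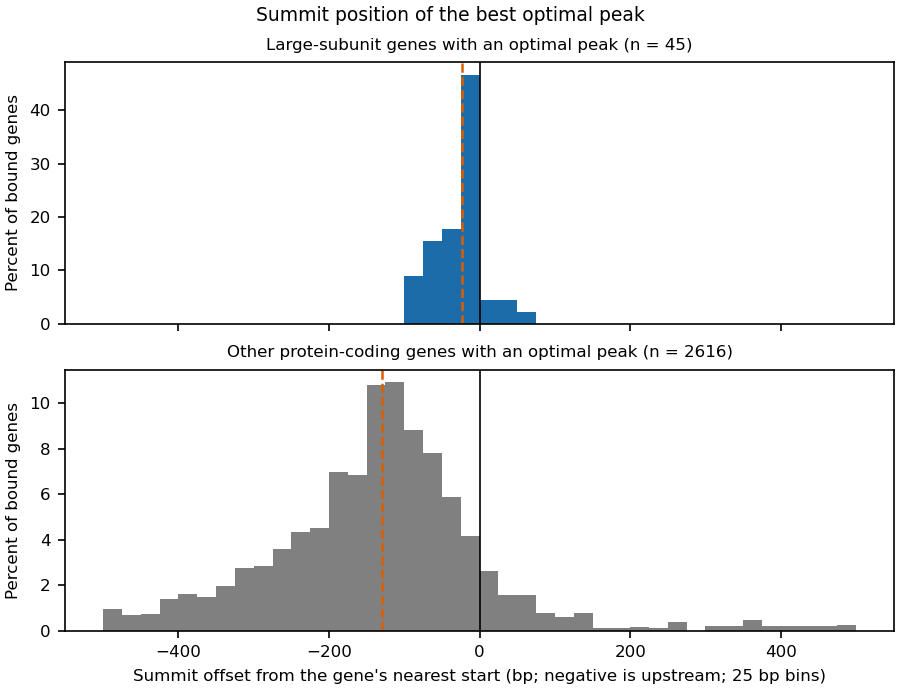
Offset of the best optimal summit from the nearest start of the gene, in bins of 25 bp, as a percentage of bound genes, for the 45 large-subunit genes (top) and the other 2616 bound protein-coding genes (bottom). The solid line marks the start and the dashed line the median, and the vertical scales differ. The large-subunit summits all fall between -94 and 58 bp, while the others centre more than 100 bp upstream.

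The farthest upstream members were RpL34a at -94 bp, RpL32 at -93 bp, RpL22 at -90 bp and RpL41 at -89 bp. RpL32 gave -93 bp in every list and RpL22 gave -91 and -81 bp in replicates 1 and 2. RpL34a gave -89 and -46 bp, and RpL41 gave -87 and -72 bp. Over the 45 members the offset of the best-ranked peak differed between replicates by a median of 17 bp, and by no more than 20 bp for 26. Each offset is taken from its own nearest start, and the best-ranked peak need not be the same one in both replicates. These values are therefore not distances between summits. The largest differences were at RpL23, with 2 peaks in each replicate, and RpLP2, with 2 in replicate 2. RpL23 gave -24 bp in the pool, -320 bp in replicate 1 and -19 bp in replicate 2, and RpLP2 gave -57, -52 and -206 bp.

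The distance was also short where only 1 start or 1 gene could be assigned. Of the members, 29 have 1 annotated start, and 23 of these were bound, with a median offset of -30 bp and 15 within 50 bp. All bound genes with 1 start, 1532 in number, had a median of -132 bp, with 11.5% within 50 bp. For the 26 members whose best peak lay at no other gene the median was -16.5 bp, with 21 within 50 bp, against -120 bp and 19.2% for the 1012 such genes overall. The 50 bp limit and both of these restrictions were chosen after offsets had been seen. The best peaks of the bound members had a median width of 265 bp, against 400 bp for the optimal set.

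The 45 bound members held 50 optimal peaks, and 5 members had a second peak, among them RpL26, RpL27A, RpL28 and RpL32. At RpL28, a large-subunit protein without a yeast counterpart, the summits lay at -56 and -273 bp with ranks 274 and 2193. At RpL32 they lay at -93 and -297 bp with ranks 151 and 3454. RpL27A had summits at -4 and -250 bp, and both summits of RpL26, at 58 and 29 bp, were downstream of the nearest start.

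Of the 50 peaks, 22 (44.0%) lay within 500 bp of a start of another protein-coding gene too, against 43.7% of the 1962 optimal promoter peaks. Through their best peaks 19 members shared with 20 partner genes, each on the opposite strand. The summit was nearer the large-subunit start in 19 of the 20 pairs. The same count was not made for other shared peaks, and it is not independent of the short offsets of the members. At the RpL13 promoter, whose start is 84 bp from that of Dref, the gene for the factor that binds the DNA replication-related element, the summit lay -14 bp from RpL13 and -70 bp from Dref. At RpL7 and Ripalpha, whose starts are 30 bp apart, it lay 25 bp downstream of RpL7 and -55 bp from Ripalpha.

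The other sharing members showed the same placement. RpL13 ranked 429 in the pool, 632 in replicate 1 and 323 in replicate 2, and RpL18, opposite Neos, ranked 865, 789 and 960. RpL41, which encodes the smallest protein of the subunit, ranked 540, 761 and 427, and its summit lay -89 bp from its own start and -93 bp from that of NaCP60E. RpL36, opposite Mybbp1A, ranked 1134, 1600 and 886. RpL29, opposite Sgf29, a subunit of the SAGA coactivator, ranked 2302, 2200 and 1880, with the summit -17 bp from RpL29 and -105 bp from Sgf29. The pair at RpL41 was therefore nearly balanced, and the others leaned to the large-subunit start.

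The exception was RpLP0-like, a relative of the stalk base protein whose yeast counterpart Mrt4 acts in assembly. Its summit lay -44 bp from its own start and -43 bp from that of 14-3-3zeta, a signalling adaptor. Giving each peak to the single nearest start left 44 members bound, with RpLP0-like lost. The second peaks of RpL28 and RpL32 lay nearer the opposite gene, at -108 bp from eIF1 and -12 bp from CG7943.

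The 9 unbound members included several gene copies and relatives. Of the 10 members whose symbols mark a copy or a relative (a final letter or number, or -like), 5 were bound, and of the other 44 members 40 were bound. RpL10Ab, RpL34a, RpL34b, RpL37-1 and RpLP0-like were bound. RpL10Aa, RpL22-like and RpL37-2 had no peak in any of the 4 lists, while RpL10Ab, RpL22 and RpL37-1, their counterparts, ranked 1657, 798 and 1388. In replicates 1 and 2, RpL10Ab ranked 2262 and 1408, RpL22 ranked 1019 and 683, and RpL37-1 ranked 2642 and 952. RpL34a and RpL34b were both bound, with pooled ranks of 409 and 98, and RpL34a stood at 462 in replicate 1 and 365 in replicate 2. RpLP0-like ranked 864 in the pool, 1278 in replicate 1 and 629 in replicate 2. Reads that match both copies of a pair may be split or lost, and how such reads were handled is not given in the sources used here.

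RpL24-like and RpL7-like, whose yeast counterparts Rlp24 and Rlp7 act in assembly and not in the finished ribosome, had only weak peaks. RpL24-like ranked 9142 in the pooled list and 4651 in replicate 1, and had none in replicate 2. RpL7-like ranked 25425, 9191 and 8562 in the pool, replicate 1 and replicate 2. Both pooled ranks lie in the part of the list that includes background.

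RpL6, RpL15, RpL21 and RpL40 were the unbound members with no copy mark. RpL15 was the member just outside the optimal set, at pooled rank 3859 and -26 bp, and RpL38 the one just inside, at 3214 and -42 bp. RpL15 differed most in rank between replicates, with rank 21262 in replicate 1 and 2081 in replicate 2. These ranks belong to summits on opposite sides of the start, at 157 bp in replicate 1 and -39 bp in replicate 2. RpL21 ranked 6284, 6718 and 4372, with the summit at 17, 486 and -20 bp. RpL6 ranked 10923 in the pool, 6316 in replicate 1 and 9419 in replicate 2, with the summit at -476, -492 and -36 bp. In neither gene did the best-ranked summit have the same offset in all lists. RpL21 had 2 peaks in replicate 1, and the best of them did not overlap the best peak of the pool or of replicate 2. RpL6 had 2 in the pool, and the best of them did not overlap the peak of replicate 2. Across lists the ranks of these genes therefore belong to different peaks. RpL40, which is made as a fusion with ubiquitin, had a peak only in replicate 2, at rank 15572 and -52 bp.

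Of the 3 other gene groups counted, the small-subunit genes came nearest to the large-subunit genes in share, rank and offset. Of 39 such genes 29 (74.4%) were bound, with a median rank of 746, a median offset of -26 bp and 62.1% within 50 bp. The summit was upstream for 69.0% of them, against 88.9% of the large-subunit genes, a difference that was not tested. The genes for the large subunit of the mitochondrial ribosome, which are also nuclear genes, were bound in 21 of 47 cases (44.7%), with a median rank of 2214 and a median offset of -148 bp. No mitochondrial summit lay within 50 bp of its start in the optimal set.

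Genes listed here as large-subunit assembly factors were bound about as often as the mitochondrial set. The list includes factors that modify ribosomal RNA, such as Nop60B, and is not restricted to proteins that act on the large subunit alone. Of 23 listed assembly factor genes 10 (43.5%) were bound, with a median offset of -130.5 bp. The best-ranked were eIF6, which keeps the new subunit from joining the small one too early, at rank 24 and -98 bp, and Ns2, a nucleolar GTPase, at rank 91 and -163 bp. Both ranked ahead of every large-subunit gene. Sbds, which helps release eIF6, ranked 2065 at 53 bp downstream, and Nop60B, the pseudouridine synthase of ribosomal RNA, ranked 2803 at -288 bp. Mybbp1A was reached through the peak it shares with RpL36, -278 bp from its own start and -12 bp from that of RpL36.

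**Figure D4:**
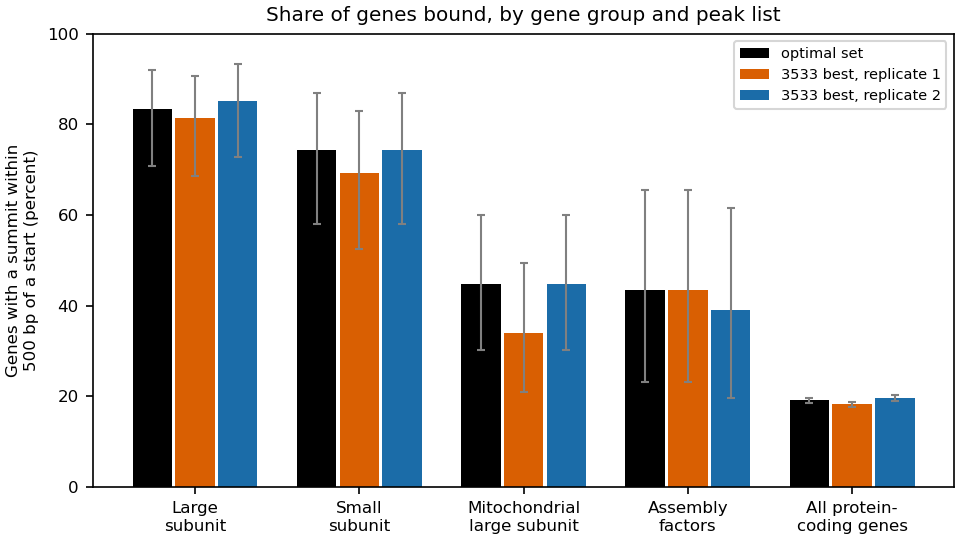
Percentage of genes with a summit within 500 bp of a start, for 54 large-subunit, 39 small-subunit, 47 mitochondrial large-subunit and 23 assembly factor genes and for all 13945 protein-coding genes, in the optimal set and in an equal number of best peaks from each replicate. Bars are shares and error bars exact 95% binomial intervals that cover counting of genes only. Large-subunit genes stand between 81.5 and 85.2% in the 3 lists.

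The promoters of the members were searched for letters of known core promoter elements from 250 bases before to 50 after the canonical start, on both strands except for the initiator. CTTTT within 10 bases of the start on the sense strand stood in 22 of 54 members (40.7%), in 5.9% of bound genes and in 4.15% of all promoters. It was in 17 of the 45 bound and 5 of the 9 unbound members. With CTTTC counted too, a choice made after the sequences were seen, it stood in 36 members (66.7%), 9.02% of bound genes and 6.80% of all promoters, and in 29 bound and 7 unbound members. This is the run marked in the windows of RpL13A, RpL23A and RpL14.

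The summit lay near the start in members with and without these letters. The median offset was -17 bp for the 17 bound members with CTTTT and -24 bp for the 28 without it. The letters were sought at the canonical start and the offset was taken from the nearest one, and these differed for 15 bound members. RpL32, counted as without CTTTT, carries it at the outermost start shown above, so the split does not always describe the start measured. Among bound genes outside the group it was -136.5 bp for the 140 genes with CTTTT and -129 bp for the 2476 without. The share within 50 bp was 82.4% with the letters and 67.9% without them among bound members, and 15.7% and 14.3% among bound genes outside the group. None of these differences was tested.

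The DNA replication-related element, TATCGATA, stood in 15 members (27.8%), 14.9% of bound genes and 8.94% of all promoters, and it was present in 12 of the 45 bound and 3 of the 9 unbound members. GGTCACAC, the core of the motif of the zinc finger factor M1BP, stood in 9 members (16.7%), 10.7% of bound genes and 7.54% of all promoters. The E-box CANCTG stood in 15 members (27.8%, exact 95% binomial interval 16.5 to 41.6%), against 46.1% of bound genes and 47.9% of all promoters. GAGAG, the letters of the GAGA factor, stood in 12 members (22.2%) against 30.3% of all promoters, and TATAAA, the TATA box, in 23 (42.6%) against 45.3%. With only 100 bases before the start, TATAAA stood in 9.26% of member promoters, 17.5% of those of bound genes and 23.9% of all promoters. The members' promoters had a median GC content of 36.7%, against 38.2% for all promoters, while for bound genes the order was the opposite, with 38.2% for the 45 bound members and 36.9% for all bound genes. A match is a run of letters and not a shown site, and these searches share the same promoters.

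**Figure D5:**
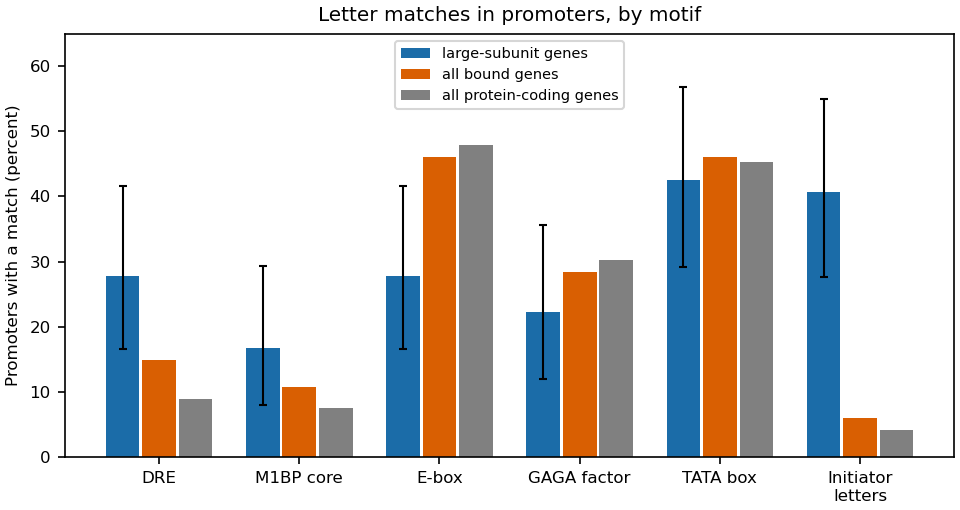
Percentage of promoters holding the letters of each element, from 250 bases before to 50 after the canonical start, for the 54 large-subunit genes, all 2661 bound genes and all 13944 promoters with a window. Error bars on the large-subunit genes are exact 95% binomial intervals. The initiator letters stand in 40.7% of large-subunit promoters and 4.15% of all promoters.

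Bound members lay on every arm examined that holds any. All 6 members on X were bound, as were 9 of 10 on 3L, 12 of 14 on 2R, 10 of 13 on 2L and 8 of 11 on 3R. The members were shorter than other genes, with a median length of 1315 bp against 2166 bp over all protein-coding genes.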

How the data were processed

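ChIP-seq peak lists of 2 biological replicates were used. Per the deposited file notes, the authors derived each list from a library's alignment and 1 separate control file on dm6, gave relaxed lists for each replicate and their pool, and thresholded the optimal set by reproducibility. Chromatin was sonicated to 200 to 800 bp, per the labels. The sources used here do not give the aligner, the peak caller or the threshold. The score and the −log10 q value of each peak are as deposited by the authors. The score ranked peaks within a list. The q value was at its ceiling for 47 of the 50 member peaks and ranked none.

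Summits were assigned to every gene with a start within 500 bp, using Ensembl release 115 (BDGP6.54). Sequences came from the RefSeq Release 6 genome. Scripts ran under Python 3.11.15 with pandas 2.3.3 and numpy 2.4.6. Intervals came from scipy 1.17.1, and figures from matplotlib 3.10.9. The assignment was tested on simulated peaks. The optimal set held the best-scoring peaks of the pooled list, so equal numbers were taken from each replicate. Of 24 assembly factor symbols 23 matched the annotation.

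With 1 group and 2 replicates no test between conditions was possible, and counts stand beside those of all protein-coding genes. The members, the gene lists and the motifs were chosen with earlier results of these data known. Ranks in every list are given for the 12 best-ranked members except 1 that is not reported here, unbound members, members with a downstream summit, the stalk, the gene copies and members sharing a peak. RpL5, RpL10, RpL38 and tunnel proteins outside that rule were added for their roles or ranks after values were seen. Alternatives were other windows, the better-scoring peaks of the optimal set, nearest or outermost starts only, each replicate alone, a reciprocal overlap of 50% and a shorter promoter window.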

Additional observations from a re-analysis of the deposited data

How the results depend on the processing

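Of the alternative values computed, 52 stayed close to the value reported and 13 moved. Close means within 1.5 times for counts, within 1 SD between replicates for ranks, offsets and upstream shares, and within the exact 95% binomial interval for motif shares. The number of bound members could not move upward by this rule, since the group holds only 54 genes. The SD came from the same single-replicate values that were then judged against it. The tally is therefore a description and carries little weight as support. The cause of a move was not tested. The number of bound members stayed between 40 and 50 over all alternatives. With 1 replicate left out, the median rank was 760 to 1116.5 and the upstream share 81.8 to 89.1%. The median offset was -16.5 bp over peaks at 1 gene only and -30 bp over genes with 1 annotated start, both chosen after seeing the data. Shared member peaks numbered 12 with a 250 bp window and 36 with a 1000 bp window. Among the 1766 better-scoring peaks 4 assembly factor and 7 mitochondrial large-subunit genes were bound, and when a peak counted for the gene of the nearest start alone, 5 and 8. A reciprocal overlap of 50% left 31 members in both replicates. With 100 bases before the start, CANCTG stood in 14.8% of member promoters against 32.8% of all, and TATAAA in 9.26% against 23.9%. The initiator letters stood in 66.7% with CTTTC counted, added after seeing the data. The shared-peak count with the nearest start only was not run, since it is 0 by construction. No paired analysis was possible because there was a single group. Unknown depth, a single line and the conflicting library description limit every count.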
